A study of Rattus norvegicus with 12 samples.

Results

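The brain RNA of bile-duct-ligated rats that received a control gene vector was compared with that of ligated rats that received none. The members are 6 of the 12 libraries of the study: 3 labelled BDL_AAV_GFP (AAV-GFP 1 to 3) against 3 labelled BDL (BDL 1 to 3), taken by their titles. All were male Sprague-Dawley rats of postnatal day 60, and in all 6 the bile duct had been ligated 4 weeks before; no measure of liver injury was analysed here. The AAV-GFP rats had in addition a vector made from an adeno-associated virus (AAV) that carries green fluorescent protein. It was given in 20 µl of phosphate-buffered saline into the cisterna magna, the fluid space behind the cerebellum. The labels give neither the serotype or promoter of the vector, nor an injection of saline or of an empty vector in the BDL rats, nor the time between injection and ligation. The vector, the injection and any day or batch that the labels do not record therefore cannot be told apart here. Sham rats, and ligated rats whose vector carried the growth factor VEGF-C (AAV-VEGFC), are shown beside some results with 3 libraries each. Comparisons of AAV-VEGFC with BDL use the same BDL libraries, so the 2 comparisons share their controls.

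AAV is a small virus with a single-stranded DNA genome, and vectors made from it carry a chosen gene in place of the viral ones. A particle binds glycans and a protein receptor on the cell surface, travels through endosomes and the Golgi to the nucleus, and there its genome becomes double-stranded and is transcribed. Cells can sense such DNA through Toll-like receptor 9 and cytosolic sensors, whose signals run through Irf3 and NF-kB to interferons and chemokines. Bile duct ligation blocks bile flow, leads to cholestatic cirrhosis, and is a model of hepatic encephalopathy, in which ammonia is taken up in brain mainly by the glutamine synthetase of astrocytes.

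Values are deposited read counts scaled to library size with TMM factors (CPM), given as mean ± SD over 3 libraries or for each library. Fold changes are AAV-GFP minus BDL on the log2 scale ± SE from edgeR's quasi-likelihood fit of the 6 libraries. A gene was called, or is said to have risen or fallen, at a Benjamini-Hochberg adjusted p under 0.05 over all 12604 genes tested. The libraries held 45241784 to 51669067 counts. The labels give 3 rats per group but no animal for a library, so p-values measure the spread between these libraries. AAV-GFP 1 stood apart from the other libraries of its group. Its counts differed from those of AAV-GFP 2 and 3 by a chi-square per degree of freedom of 96.3 and 73.6, against 12 between AAV-GFP 2 and 3 and 15.0 to 17.8 among the BDL libraries. It alone held many counts of the hypothalamic genes Oxt (2290, against 0 to 23 in the other 5) and Avp (1574, against 0 to 30). The series calls the tissue middle brain. Th, the first enzyme of dopamine synthesis and a defining midbrain transcript, lay at 0.683 to 1.70 CPM in the 6 libraries, the midbrain monoamine list (17 of 18 genes found) summed to 97.0 to 110 CPM. The 18 listed glutamatergic neuron markers that were found summed to 5743 to 7487 CPM. Where counts are given below for the 6 fits that each leave out 1 library, they follow the order BDL 1, 2 and 3, then AAV-GFP 1, 2 and 3.

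With AAV-GFP, long noncoding RNAs, splicing factors, zinc finger genes, chromatin regulators and collagen chains were among the genes that were lower, and genes of blood vessels, ribosomes, mitochondria and antigen presentation among those that were higher. In all, 2023 of 12604 genes were called (16.1%), 800 higher (6.35%) and 1223 lower (9.7%). The falls were larger than the rises: the median called fall was -0.44 and the median called rise 0.27, and 170 genes fell at least 2-fold against 33 that rose as much. The groups did not overlap in 38.5% of all tested genes, in 2319 upward and in 2539 downward, and in each of the 2023 called ones. The number of calls was 585, 800, 674, 3704, 904 and 592 in the 6 fits without 1 library, and 471 of the 2023 genes, 406 of them lower, were called in every one of these. The share of called genes that were higher was 39.5%, but 21.5% with scaling by total counts alone, 16.0% with all 12 libraries in the fit and 47.3% without AAV-GFP 1. The bar plot of calls in 24 gene lists shows the groups of genes taken up below beside the shares over all tested genes.

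**Figure D1:**
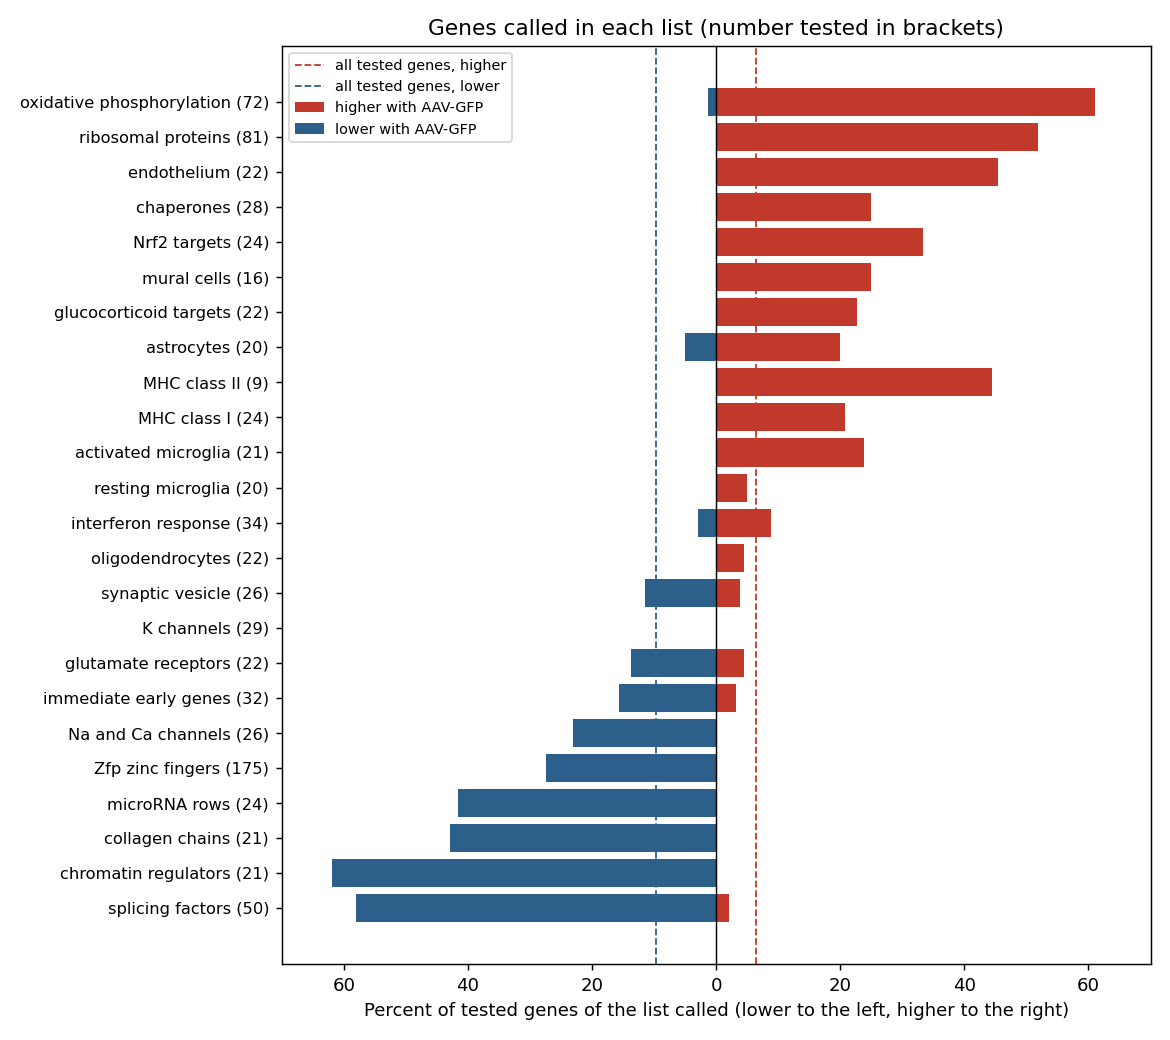
Percent of the tested genes of 24 lists that were called lower (bars to the left) and higher (bars to the right) with AAV-GFP, edgeR, adjusted p under 0.05; the dashed lines stand at the shares over all tested genes, 9.7% lower and 6.35% higher. The bars of splicing factors and chromatin regulators reach past 50% to the left, those of ribosomal proteins and oxidative phosphorylation past 50% to the right, and that of K channels is empty.

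Large falls were seen in long noncoding RNAs, which are transcribed and spliced like messenger RNA but code for no protein and often stay in the nucleus. Of 24 such RNAs listed, 7 were found and tested, and 5 fell (71.4%, against 9.7% of all genes). The list median was -1.92, against 0.01 over all genes. Meg3, an imprinted RNA that neurons express strongly and that stands in the files under the older name RGD1566401, lay at 434, 448 and 368 CPM in the BDL libraries and at 30.1, 52 and 65.2 CPM in the AAV-GFP libraries. The groups lay far apart, with a log2 fold change of -3.08 ± 0.27 (adjusted p = 0.00165). Snhg11, a host transcript of small nucleolar RNAs, lay at 199, 215 and 168 CPM against 27.1, 38.2 and 40.9 CPM (-2.45 ± 0.17, adjusted p = 0.000984). Lnc215 had 25, 25.4 and 25.2 CPM in the BDL libraries and 5.61, 5.73 and 5.74 CPM in the AAV-GFP libraries (-2.14 ± 0.07, adjusted p = 0.000165). Named after its values were seen, Miat, a neuronal RNA kept in the nucleus, went down from 431 ± 51.9 to 114 ± 27.3 CPM (-1.92 ± 0.19, adjusted p = 0.00228). Gas5, a host of small nucleolar RNAs whose transcript is degraded during translation, fell less, from 19.2 ± 2.24 to 11.7 ± 0.617 CPM (-0.71 ± 0.11, adjusted p = 0.00864). These 5 calls were made in each of the 6 fits without 1 library, and that of Gas5 was lost with all 12 libraries in the fit (adjusted p = 0.0612). In the AAV-VEGFC libraries Meg3 (RGD1566401) stood at 62.6, 44.8 and 26.5 CPM and Snhg11 at 38.6, 29.6 and 28.8 CPM, in the range of the AAV-GFP libraries or just beside it. In the sham libraries the same 2 RNAs lay at 364 to 437 and at 172 to 210 CPM, close to BDL.

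**Figure D2:**
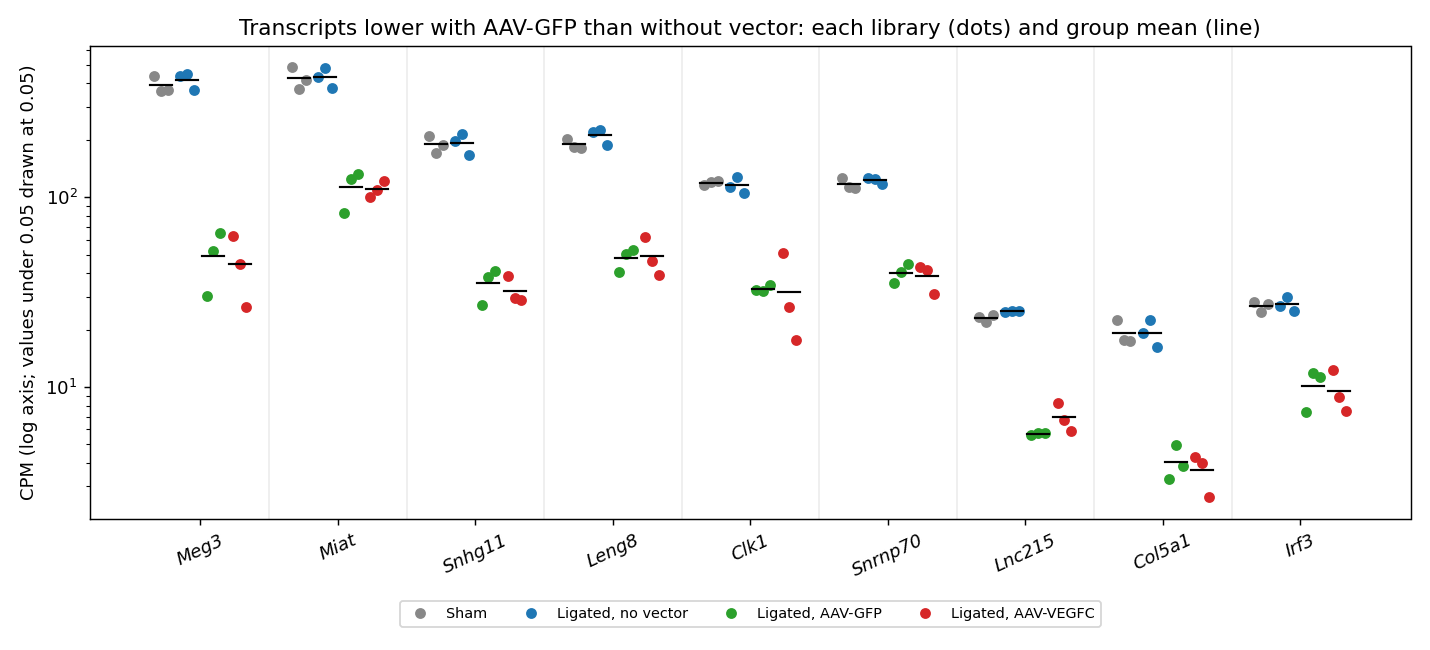
CPM (log axis) of 9 transcripts that were lower with AAV-GFP, in each of the 12 libraries (dots, by group) with the group mean (line). For all 9 transcripts the 3 AAV-GFP libraries lie under the 3 BDL libraries; Meg3 has 30.1 to 65.2 CPM against 368 to 448 CPM. The AAV-VEGFC dots lie near those of AAV-GFP and the sham dots near those of BDL.

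Splicing factors and snRNP proteins, which remove introns from pre-messenger RNA, were often lower. Of 50 tested (55 listed), 29 fell (58%, against 9.7% of all genes) and 1 rose (2%, against 6.35%), with a median of -0.40. The kinase Clk1, which phosphorylates SR splicing proteins and whose own transcript is held partly unspliced in the nucleus, lay at 114, 129 and 105 CPM in BDL and at 32.4, 32.2 and 34.6 CPM in AAV-GFP (-1.81 ± 0.08, adjusted p = 0.000352). Leng8, a factor of nuclear RNA export and retention, lay at 221, 226 and 189 CPM against 40.6, 50.3 and 53 CPM (-2.15 ± 0.12, adjusted p = 0.00053). Snrnp70, the U1 snRNP protein that recognises the start of introns, lay at 127, 125 and 117 CPM against 35.5, 40.4 and 44.4 CPM (-1.62 ± 0.09, adjusted p = 0.00053). For Clk1, Leng8 and Snrnp70 the groups were separated by more than 2-fold with little spread inside them. Named after their values were seen, the SR-related genes Luc7l3 (-1.40 ± 0.13) and Pnisr (-1.41 ± 0.14) fell as well, and the abundant spliceosome scaffold Srrm2 fell from 850 ± 36.3 to 518 ± 28.3 CPM (-0.72 ± 0.06, adjusted p = 0.00127). The gene that rose, also named after its values were seen, was the snRNP core protein gene Snrpd2, from 43.2 ± 2.21 to 52.9 ± 1.77 CPM (0.29 ± 0.06, adjusted p = 0.0185), in a list in which 38 of 50 fold changes were negative. The count of falls was 21, 24, 25, 31, 27 and 25 in the 6 fits without 1 library and 27 with all 12 libraries in the fit.

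Zinc finger genes and chromatin regulators, which control transcription, were lower by smaller amounts. Of 175 tested genes named Zfp with a number, 48 fell (27.4%, against 9.7% of all genes) and the list median was -0.18. All 48 calls were falls, and the count was 18, 20, 24, 56, 25 and 24 without BDL 1, 2, 3 and AAV-GFP 1, 2, 3. Zfp958 fell from 16.4 ± 0.355 to 5.02 ± 0.448 CPM (-1.71 ± 0.10, adjusted p = 0.000531), and Zfp192 from 46.2 ± 2.43 to 20.3 ± 1.64 CPM (-1.18 ± 0.08, adjusted p = 0.000787). Zfp292, a long transcript of developing and adult neurons, fell from 99.9 ± 1.77 to 69.99 ± 1.25 CPM (-0.51 ± 0.04, adjusted p = 0.00128). Many zinc finger genes are near copies of each other, and the split of reads between copies is uncertain. Of 21 chromatin regulators found (38 listed), 13 fell (61.9%, against 9.7% of all genes). All 21 fold changes were negative, with a median of -0.26. Setd5, a chromatin factor linked to histone acetylation, lay at 169, 170 and 185 CPM in BDL and at 121, 123 and 126 CPM in AAV-GFP (-0.50 ± 0.05, adjusted p = 0.00266). Kmt2e, a reader of histone H3 methylation, fell from 199 ± 2.74 to 157 ± 0.625 CPM (-0.35 ± 0.04), and the helicase Chd8 from 178 ± 3.40 to 142 ± 2.09 CPM (-0.32 ± 0.04). The count of chromatin calls was 9, 9, 8, 17, 10 and 7 in the fits without 1 library, and 2 with all 12 libraries in the fit, where Setd5, Kmt2e and Chd8 lost their calls, as did Zfp292.

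MicroRNA genes were lower wherever they were called. MicroRNAs are cut from longer transcripts, many of them introns of host genes, and a library of long RNA counts the uncut precursor rather than the mature molecule. Of 456 rows named as microRNAs, 24 had enough counts to be tested. Of these, 10 fell (41.7%, against 9.7% of all genes), and the list median was -0.77. The falls were read in 10 rows, 9 of which have mature sequences in RefSeq's rat table; their 14 mature arms carry 14 different seeds, so the rows do not belong to 1 seed family. The arms of the 3 rows with the smallest p are shown 5′ to 3′ with the seed, bases 2 to 8, in capitals. Their places are given in the GRCr8 assembly, which is not the rn6 build of the counts.
rno-miR-186-5p: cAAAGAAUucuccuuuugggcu
rno-miR-186-3p: gCCCAAAGgugaauuuuuugg
rno-miR-770-5p: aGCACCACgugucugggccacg
rno-miR-770-3p: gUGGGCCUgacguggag
rno-miR-2985: uGUUAUAGuaucccaccuaccc
These lie, in the same order, at chr2:249241664-249241685 and chr2:249241703-249241723, at chr6:134298094-134298115 and chr6:134298129-134298145, all on the plus strand, and at chr2:168254526-168254547 on the minus strand. Mir770 lay at 5.72, 7.23 and 4.86 CPM in BDL and at 0.521, 0.310 and 0.831 CPM in AAV-GFP (-3.41 ± 0.36, adjusted p = 0.00285). It lies inside Meg3 (RGD1566401), which fell by nearly as much (-3.08 ± 0.27). Mir186 lay at 0.957 to 1.28 CPM against 0.0791 to 0.0885 CPM (-3.66 ± 0.36, adjusted p = 0.00226). Its host Zranb2, a splicing protein gene named here after its values were seen, fell far less, from 228 ± 6.07 to 151 ± 19.6 CPM (-0.60 ± 0.09, adjusted p = 0.011). Mir2985 lay at 2.34, 2.44 and 1.97 CPM against 0.375, 0.354 and 0.613 CPM (-2.32 ± 0.30, adjusted p = 0.00549). Its host Gria2, the AMPA receptor subunit that blocks calcium entry, differed by -0.27 ± 0.10 (adjusted p = 0.112), with 1217 ± 27.9 CPM in BDL and 1008 ± 142 CPM in AAV-GFP. Also named after their values were seen, Mir421 fell by 3.05 on the log2 scale within Ftx (row RGD1564124, -2.49 ± 0.22, adjusted p = 0.00159). Mir3064 fell by 1.79 ± 0.24 within the helicase gene Ddx5, which differed by -0.10 ± 0.04 (adjusted p = 0.144). Mir1188 had 39 counts in BDL and 0 in AAV-GFP, which allows up to 0.0209 CPM and makes it at least 13.1-fold lower. At that bound (-3.71 on the log2 scale) Mir1188 still lies below the list median of -0.77, which therefore could not change. The count of falls was 4, 4, 4, 9, 5 and 4 in the fits without 1 library; Mir186, Mir770, Mir2985 and Mir3064 were called in all 6.

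Collagen chains, which build basement membranes and fibrils, made up another group that fell. Of 21 tested (35 listed), 9 fell (42.9%, against 9.7% of all genes) and the median was -0.62. Col5a1, a chain of the fibrils of connective tissue, lay at 19.3, 22.5 and 16.2 CPM in BDL and at 3.30, 4.96 and 3.84 CPM in AAV-GFP (-2.26 ± 0.19, adjusted p = 0.0014). Col11a1, another chain of minor fibrils, lay at 17.3, 17.6 and 15.2 CPM against 3.46, 5.13 and 3.97 CPM (-1.99 ± 0.16, adjusted p = 0.00125). Col16a1, which associates with fibrils, fell from 32.8 ± 1.81 to 14.3 ± 2.29 CPM (-1.2 ± 0.12, adjusted p = 0.00264). Named after their values were seen, the main chain of vessel basement membranes Col4a1 was level (47.4 ± 7.49 and 45.3 ± 1.05 CPM, -0.07 ± 0.11, adjusted p = 0.723). Col1a2, of type I collagen, had 1.56 ± 1.52 and 2.13 ± 0.729 CPM (0.45 ± 0.69, adjusted p = 0.701). The 21 listed markers of meninges and fibroblasts, of which 20 were tested, had a median of 0.27. They gave 0 calls in edgeR, 3 genes at an unadjusted p under 0.05, 2 calls in DESeq2 and 2 in limma voom. Their summed level was 324 to 805 CPM in BDL and 490 to 774 CPM in AAV-GFP. The count of collagen falls was 5, 7, 5, 10, 8 and 7 in the fits without 1 library.

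**Figure D3:**
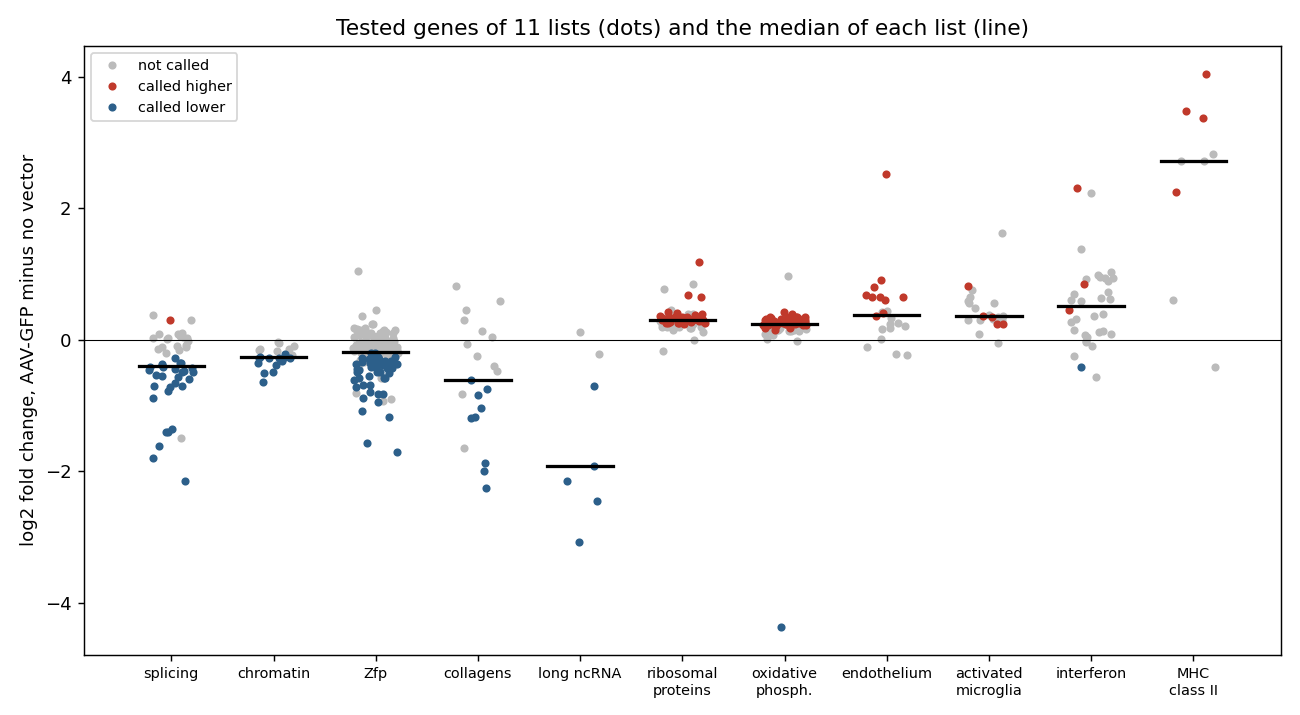
Log2 fold change of AAV-GFP against BDL (y axis) of each tested gene (dots; blue called lower, red called higher, grey not called) in 11 lists, with the median of each list (line). The long noncoding RNAs have a median of -1.92 and the splicing list one of -0.40, while MHC class II lies at a median of 2.71 with red and grey dots mixed.

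Among 15 tested host factors of the vector's route into the cell, 3 were called, 1 higher (6.67%, against 6.35% of all genes) and 2 lower (13.3%, against 9.7%), shares near those of all genes. Vps54, a subunit of the GARP complex that returns endosomes to the Golgi and is used by AAV in transit, lay at 47.7, 48.4 and 45.2 CPM in BDL and at 31.1, 32.3 and 35.6 CPM in AAV-GFP (-0.51 ± 0.06, adjusted p = 0.00515). Met, a tyrosine kinase named as a co-receptor of some serotypes, fell from 13.3 ± 1.29 to 8.67 ± 0.938 CPM (-0.62 ± 0.12, adjusted p = 0.0198). Rpsa, the laminin receptor that is also a ribosomal protein, rose from 333 ± 10.6 to 422 ± 31.5 CPM (0.34 ± 0.06, adjusted p = 0.0179). Vps54 was called in each of the 6 fits without 1 library, Met lost its call without BDL 1, BDL 3 and AAV-GFP 3, and Rpsa without any BDL library and without AAV-GFP 3.

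Among sensors of foreign nucleic acid and their adaptors 1 gene was called. Irf3, the transcription factor that these sensors activate to induce type I interferon, lay at 26.9, 29.9 and 25.2 CPM in BDL and at 7.36, 11.8 and 11.3 CPM in AAV-GFP (-1.43 ± 0.18, adjusted p = 0.00532). It was the 1 call among 17 tested genes of this list (5.88% lower, against 9.7% of all genes). The list median was 0.14, and Irf3 was called in all 6 fits without 1 library. In AAV-VEGFC it lay at 12.3, 8.86 and 7.53 CPM. Interferon-stimulated genes were called in 4 of 34 cases, 3 higher (8.82%, against 6.35% of all genes) and 1 lower, with a list median of 0.52. Ifit3, an antiviral protein of interferon-treated cells, lay at 0.672, 1.13 and 1.85 CPM against 8.09, 5.16 and 4.96 CPM (2.31 ± 0.39, adjusted p = 0.013). Ifit2, of the same family, lay at 7.50, 6.67 and 7.98 CPM against 14.0, 13 and 12.7 CPM (0.84 ± 0.10, adjusted p = 0.00455). Ifi27, a mitochondrial interferon-induced protein, rose from 63.7 ± 3.74 to 86.9 ± 8.71 CPM (0.45 ± 0.08, adjusted p = 0.0177). Irf9, a transcription factor of the interferon response, fell from 13.3 ± 1.25 to 9.90 ± 0.638 CPM (-0.42 ± 0.10, adjusted p = 0.0369) and was named after its value was seen, as was a gene that was not called. The chemokine Cxcl10 had 3.11 CPM in AAV-GFP 1, 0.354 and 0.297 CPM in AAV-GFP 2 and 3, and 0.0867, 0.340 and 0.362 CPM in BDL (adjusted p = 0.193). Ifit2 kept its call in all 6 fits without 1 library, Ifit3 lost it without BDL 2, Ifi27 without each BDL library, and Irf9 kept it only without AAV-GFP 1; the list median was 0.22 without AAV-GFP 1.

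The interferon-stimulated response element, a short motif in the promoters of many interferon-induced genes, was searched in the promoters of these genes in RefSeq's table (GRCr8) as GAAANNGAAA or, on the other strand, TTTCNNTTTC, in the 250 bases before the start. Of the 34 tested genes 26 had a promoter in the table, and 20 of them (76.9%) held it, against 3.29% of all 27457 promoters and 2.52% of the 9515 promoters of tested genes. The list was made of known interferon-stimulated genes, so this excess describes the list and not the effect of AAV-GFP. Of the 3 genes that rose, Ifit3 and Ifi27 had a promoter in the table and both held it, and so did 18 genes that were not called higher. The stretch of Ifit3 at chr1:241527252-241527321, plus strand, is shown because Ifit3 had the largest called rise of the list, with the element, which begins 44 bases before the start, in capitals.
Ifit3 promoter: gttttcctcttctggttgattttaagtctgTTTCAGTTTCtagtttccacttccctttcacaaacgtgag

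Genes of MHC class II, which display peptides of swallowed proteins to helper T cells and in brain are made by activated microglia and border macrophages, rose in part, some from near 0. Of 9 tested (12 listed), 4 rose (44.4%, against 6.35% of all genes), and the median was 2.71. RT1-Bb, a beta chain, lay at 0.325, 0.361 and 0.924 CPM in BDL and at 8.01, 4.65 and 4.25 CPM in AAV-GFP (3.38 ± 0.47, adjusted p = 0.00711). RT1-Ba, its alpha chain partner, lay at 0, 0.255 and 0.985 CPM against 6.59, 3.70 and 3.76 CPM (3.48 ± 0.94, adjusted p = 0.0496). RT1-DMb, which helps load peptides, lay at 0.195, 0.191 and 0.121 CPM against 5.55, 2.10 and 0.831 CPM (4.05 ± 0.77, adjusted p = 0.0187). Ciita, the master activator of the class, rose from 0.189 ± 0.0843 to 0.902 ± 0.550 CPM (2.24 ± 0.59, adjusted p = 0.0459). For these 4 genes the groups did not overlap, and AAV-GFP 1 was the highest library. For the abundant invariant chain Cd74 they did overlap: it had 4.64, 7.65 and 30.7 CPM in BDL and 235, 25.7 and 22.4 CPM in AAV-GFP (2.71 ± 1.13, adjusted p = 0.15). In AAV-VEGFC, RT1-Bb stood at 0.227, 0.419 and 1.23 CPM and RT1-Ba at 0.428, 0.559 and 1.19 CPM, near BDL, but RT1-DMb stood at 0.277, 1.34 and 1.54 CPM (2.63 ± 0.69 against BDL, adjusted p = 0.107) and at 2.42 CPM in sham 3. RT1-Bb kept its call in all 6 fits without 1 library, RT1-DMb lost it without each BDL library, RT1-Ba without BDL 1, BDL 2, AAV-GFP 2 and AAV-GFP 3, and Ciita without each of the 6; the list median was 1.28 without AAV-GFP 1. The count was 1, 1, 2, 5, 2 and 2 in those fits, and 2 both with scaling by total counts and with all 12 libraries in the fit, where RT1-DMb and Ciita lost their calls. The RT1 genes are near copies of each other and differ between rat strains, so the split of reads among them is uncertain.

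MHC class I genes and the proteasome and chaperone parts that feed them rose in 5 of 24 tested cases (20.8%, against 6.35% of all genes). The list median was 0.41. Calr, a chaperone of the peptide-loading complex, rose from 581 ± 11.9 to 693 ± 13.1 CPM (0.25 ± 0.04, adjusted p = 0.0115). Psmb10, an immunoproteasome subunit, rose from 13.2 ± 0.373 to 16.9 ± 0.653 CPM (0.36 ± 0.07, adjusted p = 0.022), and Pdia3, which folds glycoproteins, from 294 ± 4.57 to 339 ± 7.33 CPM (0.20 ± 0.04, adjusted p = 0.0216). Named after its values were seen, B2m, the light chain of all class I molecules, had 244, 291 and 287 CPM against 490, 365 and 371 CPM (0.58 ± 0.13, adjusted p = 0.0303). The count was 1, 0, 0, 6, 2 and 1 in the fits without 1 library. It was 2 both with scaling by total counts and with all 12 libraries in the fit, and 0 with the replicate number as a block.

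Microglia are the resident macrophages of brain. Of 20 tested genes of resting microglia 18 had positive fold changes, with a median of 0.38, and 9 were higher at an unadjusted p under 0.05. DESeq2 called 7 higher, but edgeR called 1 (5%, against 6.35% of all genes). It was Tyrobp, an adaptor of activating receptors, which rose from 9.29 ± 1.01 to 14.4 ± 2.78 CPM (0.63 ± 0.16, adjusted p = 0.0395) and kept its call only without AAV-GFP 1. Their summed level was 587, 634 and 692 CPM in BDL and 1047, 701 and 696 CPM in AAV-GFP, so that AAV-GFP 1 alone lay clearly above. Of 21 tested genes of activated microglia 5 rose (23.8%, against 6.35% of all genes), with a median of 0.36. Lyz2, the lysozyme of macrophages, lay at 36.1, 38.6 and 44.5 CPM against 71.0, 72.0 and 67.3 CPM (0.82 ± 0.08, adjusted p = 0.00238). The lysosomal protease Ctsd rose from 321 ± 16.2 to 412 ± 15.7 CPM (0.36 ± 0.06, adjusted p = 0.00968), and Ctsb, another, from 569 ± 25.2 to 674 ± 22.1 CPM (0.25 ± 0.05, adjusted p = 0.0234). Aif1, the Iba1 protein used to stain microglia, had 12.6, 13.5 and 13.2 CPM against 25.3, 15.8 and 16.8 CPM and was not called by edgeR (0.56 ± 0.18, adjusted p = 0.0822). It was called by DESeq2, by limma voom and without AAV-GFP 1. The count of activated genes was 2, 2, 2, 10, 2 and 2 in the fits without 1 library, and Lyz2 and Ctsd were called in all 6. In RNA from whole tissue, more cells of a type and more RNA per cell cannot be told apart, here and in every cell type below.

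Cytokine and NF-kB genes were called in 4 of 18 cases, with a median of 0.30. Of these, 3 were higher (16.7%, against 6.35% of all genes) and 1 lower (5.56%, against 9.7%). Nfkbia, the inhibitor that NF-kB induces to switch itself off, lay at 14.1, 18.9 and 21.8 CPM in BDL and at 45.1, 40.4 and 41.8 CPM in AAV-GFP (1.22 ± 0.15, adjusted p = 0.00521), and was called in all 6 fits without 1 library. It is also a target of glucocorticoids, the list of which is given further on. Ccl2, a chemokine that draws monocytes, rose from 0.134 ± 0.0288 to 0.429 ± 0.0706 CPM (1.67 ± 0.42, adjusted p = 0.0402), a call lost without each of the 6 libraries. Ptgs2, the inducible cyclooxygenase that neurons express with activity, fell from 25.4 ± 1.10 to 16.2 ± 3.44 CPM (-0.65 ± 0.15, adjusted p = 0.0347) and kept its call only without AAV-GFP 1 and AAV-GFP 2. With all 12 libraries in the fit the list gave 1 call, Nfkbia. The 10 tested lymphocyte genes, of 26 listed, gave 0 calls in edgeR, 2 at an unadjusted p under 0.05, 1 in DESeq2 and 0 in limma voom. Their summed level was 11.1 to 19.1 CPM in BDL and 16.8 to 27 CPM in AAV-GFP.

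Many genes of blood vessels were higher. Of 22 tested genes of brain endothelium 10 rose (45.5%, against 6.35% of all genes), all 10 calls were upward, and the median was 0.38. Cldn5, the main claudin of the tight junctions that seal the blood-brain barrier, lay at 53.6, 66.7 and 64.0 CPM in BDL and at 116, 109 and 121 CPM in AAV-GFP (0.91 ± 0.09, adjusted p = 0.00228). Apold1, an early response gene of endothelium, lay at 4.64, 12.6 and 13.4 CPM against 51.6, 62.6 and 62.4 CPM (2.52 ± 0.36, adjusted p = 0.0075). Tek, the angiopoietin receptor, lay at 24.3, 28.4 and 24.8 CPM against 43.0, 36.5 and 38.3 CPM (0.60 ± 0.09, adjusted p = 0.00843). In all 3 genes the groups were clear of each other, and AAV-VEGFC stood at 110 to 157 CPM for Cldn5, at 109 to 123 CPM for Apold1 and at 37.3 to 43.3 CPM for Tek. Named after its values were seen, Pecam1, an adhesion protein of all endothelium, rose from 12 ± 1.85 to 19.2 ± 1.95 CPM (0.68 ± 0.14, adjusted p = 0.0214). The summed level of the endothelial list was 766 to 913 CPM in BDL and 1001 to 1085 CPM in AAV-GFP. The count was 3, 7, 4, 12, 5 and 3 in the fits without 1 library, with Cldn5, Apold1 and Tek called in all 6, and scaling by total counts gave 8 higher and 1 lower.

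Transporters of the barrier moved both ways, 4 higher (22.2%, against 6.35% of all genes) and 2 lower (11.1%, against 9.7%) of 18 tested. Lrp1, the large receptor that clears amyloid and lipoproteins and is made by neurons and glia as well, fell from 1078 ± 51.7 to 742 ± 112 CPM (-0.54 ± 0.11, adjusted p = 0.0202). The taurine transporter Slc6a6 fell from 50.5 ± 2.12 to 41.3 ± 3.06 CPM (-0.29 ± 0.07, adjusted p = 0.033). Slco1c1, which carries thyroid hormone, rose from 90.6 ± 6.76 to 110 ± 2.03 CPM (0.28 ± 0.06, adjusted p = 0.0273). Slc2a1, the glucose transporter Glut1, named after its values were seen, rose from 146 ± 25.6 to 201 ± 9.93 CPM (0.46 ± 0.12, adjusted p = 0.0486). With scaling by total counts 0 transporters were higher and 2 lower, with all 12 libraries 0 and 1, and the 6 fits without 1 library gave 0 to 5 higher (0, 2, 1, 5, 0 and 0) and 0 to 2 lower (0, 0, 0, 2, 0 and 1). Of 16 tested genes of pericytes and smooth muscle, the mural cells that wrap vessels, 4 rose (25%, against 6.35% of all genes). Acta2, smooth muscle actin, lay at 4.44, 10.01 and 7.56 CPM in BDL and at 28.1, 15.9 and 14.8 CPM in AAV-GFP (1.42 ± 0.35, adjusted p = 0.0402). Tagln, which binds actin, lay at 8.73, 13.5 and 10.6 CPM against 35.5, 19 and 19.7 CPM (1.18 ± 0.28, adjusted p = 0.0347), and Myl9, a myosin light chain, at 5.61, 9.61 and 8.58 CPM against 14.8, 14.1 and 14.0 CPM (0.85 ± 0.19, adjusted p = 0.0295). AAV-GFP 1 was the highest library in each of them, and the count was 1, 1, 0, 4, 1 and 0 in the fits without 1 library.

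The list of VEGF ligands, receptors and lymphatic markers also holds angiopoietin receptors. Among its 20 tested genes the ligand Vegfa fell and 3 endothelial receptors rose. Of these, Flt1 is a receptor of Vegfa, while Tek and Tie1 belong to the angiopoietin system. The share lower was 5%, under the 9.7% of all genes, and the share higher 15%, against 6.35%. Vegfa lay at 107, 123 and 110 CPM in BDL and at 64.7, 80.3 and 86.5 CPM in AAV-GFP (-0.55 ± 0.11, adjusted p = 0.0228), a call kept only without AAV-GFP 1 and AAV-GFP 3. Its decoy receptor Flt1 rose from 111 ± 13.4 to 142 ± 7.61 CPM (0.35 ± 0.09, adjusted p = 0.0473), as did Tek and its partner Tie1 (0.40 ± 0.10, adjusted p = 0.042). The calls of Flt1 and Tie1 were each lost without at least 4 of the 6 libraries. Vegfc itself had 1.95, 2.44 and 1.51 CPM in BDL and 3.65, 2.83 and 3.52 CPM in AAV-GFP. The groups did not overlap, as in 38.5% of all tested genes, but the difference missed the threshold in edgeR (0.76 ± 0.23, adjusted p = 0.0667). DESeq2 and limma voom called Vegfc higher, and 0 of the 6 fits without 1 library did. In AAV-VEGFC the rat gene stood at 2.64, 3.29 and 3.84 CPM. The lymphatic markers were not called. The receptor Flt4 had 3.35 ± 0.510 and 2.96 ± 1.01 CPM (-0.18 ± 0.29, adjusted p = 0.72), and Lyve1 had 4.01 ± 0.520 and 4.15 ± 0.919 CPM (0.05 ± 0.21, adjusted p = 0.897). Prox1, which in brain is also a neuronal gene, had 22.8, 25.4 and 22.9 CPM against 7.47, 23.5 and 19 CPM (-0.51 ± 0.37, adjusted p = 0.388), with AAV-GFP 1 alone far below.

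**Figure D4:**
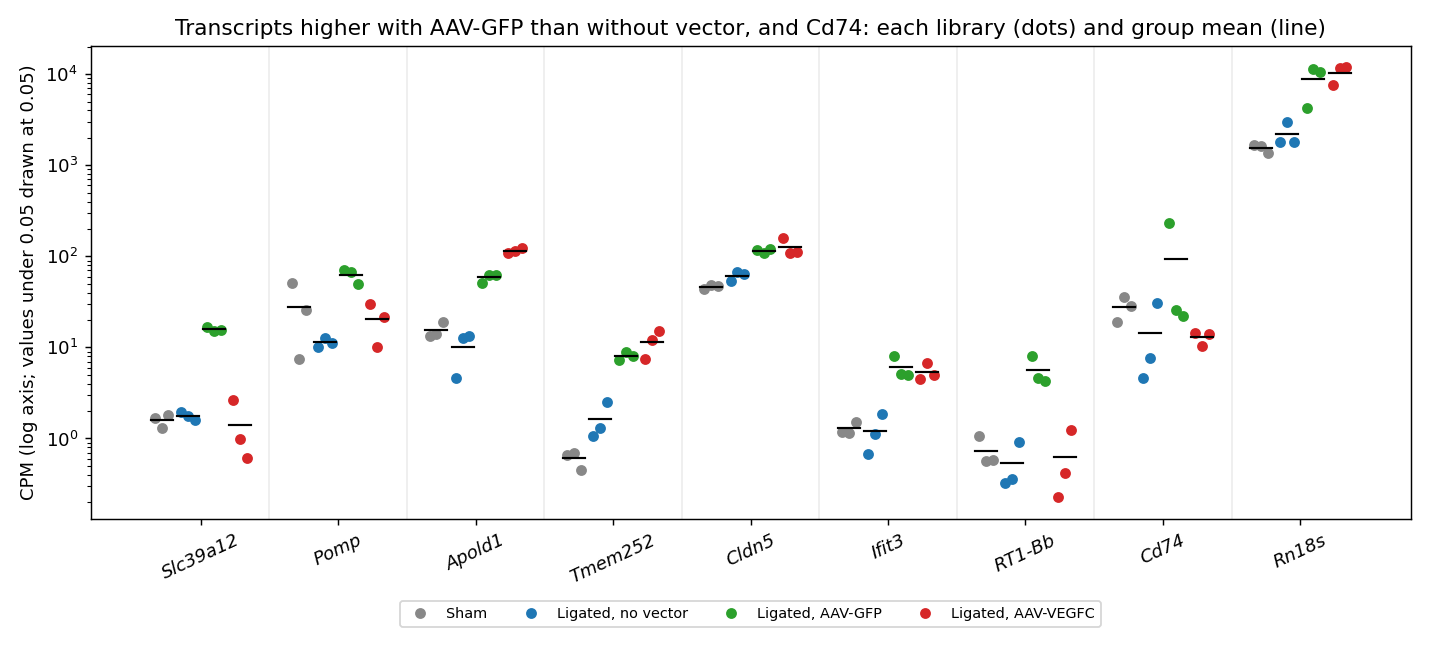
CPM (log axis) of 9 transcripts in each of the 12 libraries (dots, by group) with the group mean (line). All but Cd74 were called higher with AAV-GFP than without vector; Slc39a12 and RT1-Bb lie higher in the 3 AAV-GFP libraries than in all others, Pomp in 1 sham library (50.6 CPM) reaches the lowest AAV-GFP library (50.2 CPM), Apold1, Tmem252, Cldn5, Ifit3 and Rn18s are high in AAV-VEGFC too, and for Cd74 AAV-GFP 1 stands alone at 235 CPM.

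Astrocytes, which take up glutamate and ammonia, had some small rises. Of 20 tested astrocyte genes 4 rose (20%, against 6.35% of all genes) and 1 fell (5%, against 9.7%), with a median of 0.23. S100b, a calcium-binding protein, rose from 1473 ± 83.1 to 1855 ± 122 CPM (0.33 ± 0.07, adjusted p = 0.0202), and Ntsr2, a neurotensin receptor, from 102 ± 3.55 to 129 ± 8.97 CPM (0.34 ± 0.06, adjusted p = 0.0166). Sox9, the transcription factor of astrocyte identity, named after its values were seen, fell from 78.0 ± 10.3 to 56.3 ± 1.92 CPM (-0.47 ± 0.09, adjusted p = 0.0216). Of 22 tested genes of ammonia and glutamine handling 3 rose (13.6%, against 6.35% of all genes). Glul, glutamine synthetase, had 1881, 1870 and 1904 CPM in BDL and 2428, 2238 and 2311 CPM in AAV-GFP (0.30 ± 0.04, adjusted p = 0.00823). Slc1a3, the glutamate transporter GLAST, rose by 0.25 ± 0.05 (adjusted p = 0.0192), and Gls2, which turns glutamine back into glutamate, by 0.28 ± 0.07 (adjusted p = 0.0406). The count of astrocyte rises was 0, 2, 1, 6, 2 and 3 and that of ammonia genes 1, 3, 1, 7, 1 and 1 in the fits without 1 library, with Glul called in all 6. With all 12 libraries in the fit neither list gave a call, and Glul missed the threshold (adjusted p = 0.0523). Gfap, the filament that reactive astrocytes make, had 589, 665 and 666 CPM against 954, 834 and 678 CPM (0.36 ± 0.12, adjusted p = 0.0924). It was called by DESeq2 and without AAV-GFP 3. The water channel Aqp4 was level (691 ± 43.9 and 727 ± 170 CPM, 0.07 ± 0.16, adjusted p = 0.786). The 20 tested genes of reactive astrocytes gave 0 calls in edgeR, 5 at an unadjusted p under 0.05, 4 in DESeq2 and 2 in limma voom.

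Of 22 oligodendrocyte genes 1 was called higher (4.55%, against 6.35% of all genes), Olig2, a transcription factor of the lineage. It lay at 38.8, 38.5 and 47.0 CPM in BDL and at 74.3, 72.0 and 70.03 CPM in AAV-GFP (0.80 ± 0.08, adjusted p = 0.00296), in all 6 fits without 1 library, beside a list median of 0.10 and 6 calls without AAV-GFP 1. Markers of ependyma and choroid plexus rose in 2 of 16 cases (12.5%, against 6.35% of all genes). They were the water channel Aqp1 (1.50 ± 0.154 to 2.96 ± 0.442 CPM, adjusted p = 0.0217) and the chloride channel protein Clic6 (0.929 ± 0.213 to 2.97 ± 1.32 CPM, adjusted p = 0.0376). Both kept their call only without AAV-GFP 1.

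Of 26 voltage-gated sodium and calcium channel genes 6 fell (23.1%, against 9.7% of all genes), with a median of -0.12, and all 6 were calcium channel subunits. Cacna1d, the pore of an L-type channel, lay at 91.8, 89.8 and 84.3 CPM in BDL and at 52.2, 52.6 and 54.2 CPM in AAV-GFP (-0.74 ± 0.05, adjusted p = 0.00086). Cacna1e, the pore of the R-type channel, lay at 232, 192 and 217 CPM against 149, 135 and 129 CPM (-0.63 ± 0.09, adjusted p = 0.00662). The auxiliary subunit Cacnb4 fell from 163 ± 2.68 to 135 ± 7.10 CPM (-0.27 ± 0.05, adjusted p = 0.0189). The count was 2, 2, 2, 12, 3 and 3 in the fits without 1 library, with Cacna1d and Cacna1e called in all 6, and 5 genes of the list were higher without AAV-GFP 1. With all 12 libraries in the fit 3 fell. Of 22 glutamate receptor genes 3 fell (13.6%) and 1 rose, shares near those of all genes. The AMPA subunit Gria3 (475 ± 8.22 to 387 ± 8.07 CPM, -0.29 ± 0.04, adjusted p = 0.00722) and the kainate subunit Grik2 (54.2 ± 4.21 to 39.8 ± 1.33 CPM, -0.44 ± 0.07, adjusted p = 0.00891) fell, each called in all 6 such fits, but with all 12 libraries in the fit Gria3 lost its call (adjusted p = 0.244). The NMDA subunit Grin2b had 80.3, 77.7 and 87.8 CPM against 95.1, 145 and 134 CPM (0.61 ± 0.15, adjusted p = 0.0402), and kept its call only without AAV-GFP 1. Of 26 genes of synaptic vesicles and release 3 fell (11.5%) and 1 rose, again near the shares of all genes, and without AAV-GFP 1 the list gave 6 higher and 6 lower. Unc13b, which primes vesicles, lay at 49.8, 46.9 and 47.2 CPM against 36.6, 36.5 and 36.7 CPM (-0.39 ± 0.05, adjusted p = 0.00404), called in all 6 such fits but not with all 12 libraries (adjusted p = 0.211). The active zone scaffold Pclo fell from 439 ± 27 to 349 ± 16.0 CPM (-0.33 ± 0.06, adjusted p = 0.0177). Snap25, a core protein of vesicle fusion, had 2588, 2695 and 2685 CPM against 2904, 3543 and 3551 CPM (0.33 ± 0.08, adjusted p = 0.04), and kept its call only without AAV-GFP 1.

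Genes induced by neuronal activity were called lower in 5 of 32 cases (15.6%, against 9.7% of all genes) and higher in 1 (3.12%, against 6.35%). The list median was -0.15. Arc, which drives removal of AMPA receptors at active synapses, lay at 68.9, 169 and 104 CPM in BDL and at 35.0, 44.4 and 39.1 CPM in AAV-GFP (-1.53 ± 0.30, adjusted p = 0.0211). Spry4, a feedback inhibitor of growth factor signals, fell from 18.9 ± 0.294 to 13.1 ± 1.33 CPM (-0.53 ± 0.09, adjusted p = 0.0148). Named after their values were seen, the zinc finger factors Egr1 (141 ± 37.9 to 72.9 ± 14.8 CPM, adjusted p = 0.0315), Egr2 (13.9 ± 7.67 to 3.85 ± 1.54 CPM, adjusted p = 0.0392) and Egr4 (30.6 ± 7.20 to 19.1 ± 0.936 CPM, adjusted p = 0.0336) fell too. Fos had 20.3 ± 8.77 and 14.4 ± 2.79 CPM (adjusted p = 0.361). Atf3, a stress-induced factor, rose from 0.342 ± 0.0739 to 1.2 ± 0.398 CPM (1.8 ± 0.37, adjusted p = 0.022) and stood at 3.65, 2.06 and 8.90 CPM in AAV-VEGFC. The count of falls was 5, 1, 1, 6, 1 and 0 in the fits without 1 library and 3 with all 12 libraries; Arc lost its call without BDL 3, AAV-GFP 2 or AAV-GFP 3, and Atf3 kept its call only without AAV-GFP 1.

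Of 81 tested ribosomal protein genes 42 rose by small amounts (51.9%, against 6.35% of all genes). All 42 calls were upward, and the median was 0.29. Rpl29 had 146, 150 and 139 CPM in BDL and 195, 178 and 183 CPM in AAV-GFP (0.35 ± 0.05, adjusted p = 0.0105). Rpl28 had 132, 137 and 135 CPM against 173, 159 and 164 CPM (0.30 ± 0.05, adjusted p = 0.0119). Rps18 had 127, 138 and 124 CPM against 188, 163 and 172 CPM (0.43 ± 0.07, adjusted p = 0.0121). As a share of all counts these genes made up 1.2 to 1.32% in BDL and 1.35 to 1.62% in AAV-GFP, with AAV-GFP 1 the highest. Most of them have many processed pseudogenes, and reads shared with those are uncertain. The count was 1, 19, 2, 52, 32 and 2 in the fits without 1 library, 16 with scaling by total counts and 1 with all 12 libraries in the fit. The list median lay between 0.24 and 0.29 in the fits with these scalings, with all 12 libraries and without AAV-GFP 1.

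Subunits of oxidative phosphorylation, the mitochondrial chain that makes ATP, were called in 45 of 72 cases. Of the 72, 44 rose (61.1%, against 6.35% of all genes) and 1 fell (1.39%, against 9.7%), and the median was 0.24. Atp5e, a subunit of ATP synthase, had 89.4, 91.8 and 87.3 CPM in BDL and 115, 123 and 123 CPM in AAV-GFP (0.43 ± 0.05, adjusted p = 0.00375). Atp5d, another, rose from 141 ± 2.54 to 177 ± 4.56 CPM (0.33 ± 0.04, adjusted p = 0.00559), and Ndufb2, of complex I, from 49.1 ± 0.803 to 61.3 ± 0.739 CPM (0.32 ± 0.04, adjusted p = 0.00547). The subunit that fell was Ndufa1, also of complex I, with 17.1, 3.08 and 15.7 CPM in BDL and 0.730, 0.664 and 0.336 CPM in AAV-GFP (-4.37 ± 0.71, adjusted p = 0.0118). It was as uneven in the other groups, with 14.6, 17.9 and 0.0717 CPM in sham and 6.67, 20.9 and 0.395 CPM in AAV-VEGFC, and its call was lost without AAV-GFP 3. The count of rises was 7, 20, 7, 58, 19 and 6 in the fits without 1 library, 28 with scaling by total counts and 1 with all 12 libraries in the fit; Atp5e, Atp5d and Ndufb2 were called without each of the 6 libraries, and the rise called with all 12 was that of Atp5d.

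Of ribosomal RNA, most of which is removed or left out when libraries are made, Rn18s was called higher and Rn45s was not called. Rn18s, the 18S RNA, made up 0.185, 0.306 and 0.181% of all counts in BDL and 0.430, 1.12 and 1.04% in AAV-GFP (2.0 ± 0.40, adjusted p = 0.0209), a call lost without BDL 1, BDL 3, AAV-GFP 2 or AAV-GFP 3. Rn45s, the precursor, had 6.33, 263 and 230 CPM against 503, 997 and 1015 CPM (2.33 ± 1.06, adjusted p = 0.181). Rmrp, the RNA of an enzyme that processes ribosomal precursors, lay at 1.28, 1.28 and 1.45 CPM against 4.38, 3.16 and 3.54 CPM (1.47 ± 0.19, adjusted p = 0.00606) and was called in all 6 fits without 1 library. Rn18s thus differed between the same groups as the long noncoding RNAs, the splicing factors and the ribosomal protein genes, and the part of RNA quality or of library making in those results was not tested.

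Several lists of stress genes rose in part. Of 28 chaperones and unfolded-protein genes 7 rose (25%, against 6.35% of all genes). Among them were the mitochondrial chaperonin Hspe1 (43.4 ± 0.0893 to 54.6 ± 0.975 CPM, 0.33 ± 0.04, adjusted p = 0.00485) and Herpud1, a factor of protein removal from the endoplasmic reticulum (54.2 ± 3.73 to 72.4 ± 0.900 CPM, 0.42 ± 0.06, adjusted p = 0.00743). Both were called in all 6 fits without 1 library, but Hspe1 lost its call with all 12 libraries in the fit (adjusted p = 0.48). Of 24 antioxidant genes driven by Nrf2, 8 rose (33.3%, against 6.35% of all genes). Among them were Gpx4, which protects lipids from oxidation (216 ± 6.21 to 287 ± 22.8 CPM, 0.41 ± 0.07, adjusted p = 0.0118), and the ferritin heavy chain Fth1 (1723 ± 83.0 to 2097 ± 62.5 CPM, 0.28 ± 0.05, adjusted p = 0.0155). Glucocorticoid targets rose in 5 of 22 cases (22.7%, against 6.35% of all genes) with a median of 0.35. Beside Nfkbia these included Ddit4, an inhibitor of mTOR (41.0, 51.2 and 62.9 CPM against 89.8, 90.6 and 91.4 CPM, adjusted p = 0.0148), Angptl4, an inhibitor of lipoprotein lipase (8.45 ± 0.432 to 13 ± 0.954 CPM, adjusted p = 0.0101). Sgk1, a kinase named after its values were seen, rose from 59.7, 66.2 and 142 CPM to 205, 253 and 236 CPM (adjusted p = 0.0347). Over the fits without 1 library the counts were 3, 4, 3, 10, 3 and 2 for chaperones, 0, 6, 1, 13, 3 and 0 for the Nrf2 list, and 2, 2, 5, 7, 3 and 1 for glucocorticoid targets. With all 12 libraries in the fit they were 1, 1 and 3, and Gpx4, Fth1 and Angptl4 lost their calls. In the clock, 3 of 18 genes fell (16.7%, against 9.7% of all genes) and 1 rose (5.56%, against 6.35%). Clock, the partner of Bmal1, had 129, 126 and 132 CPM against 98.4, 100 and 101 CPM (-0.37 ± 0.04, adjusted p = 0.00363), in all 6 such fits but not with all 12 libraries (adjusted p = 0.132). The repressor Per3 fell from 31.0 ± 3.43 to 19 ± 2.71 CPM (-0.70 ± 0.13, adjusted p = 0.0159).

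**Figure D5:**
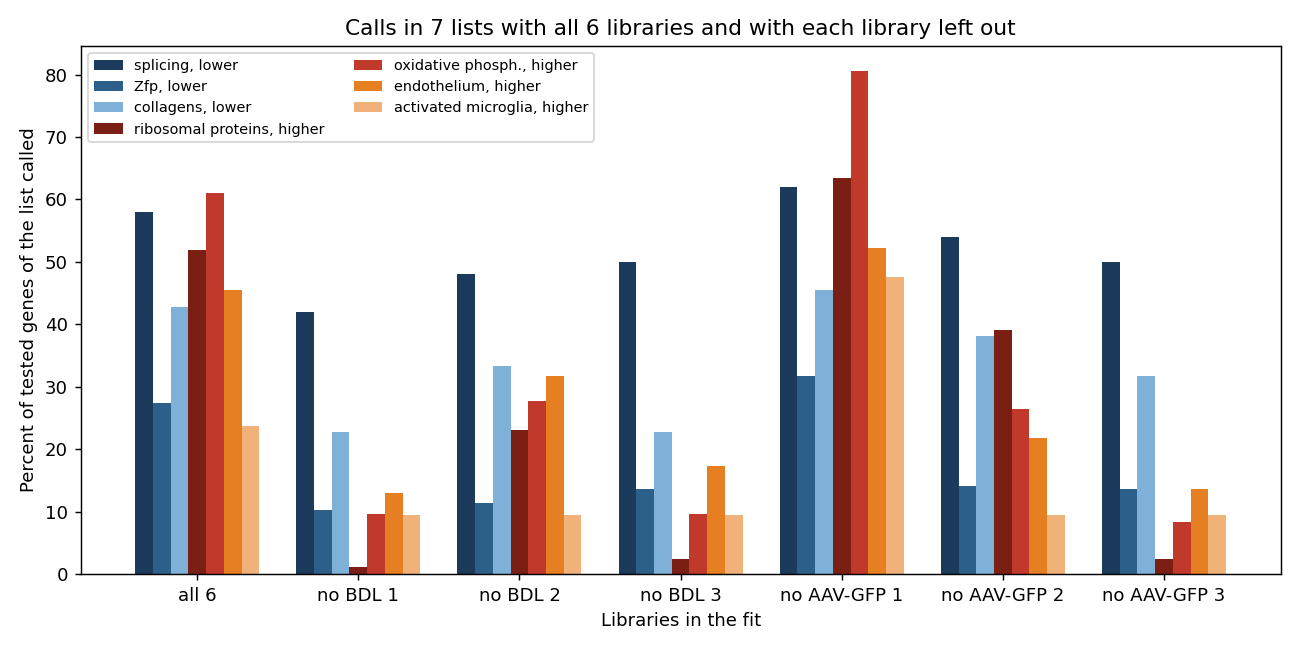
Percent of the tested genes called in 1 direction per list (lower for splicing factors, Zfp genes and collagens, higher for the other 4 lists; bars by list) in the fit of all 6 libraries and in the 6 fits that leave out 1 library each. The splicing falls stay between 42 and 62%, whereas the rises of ribosomal proteins and oxidative phosphorylation drop to 10% or less without BDL 1, BDL 3 or AAV-GFP 3 and rise above 60% without AAV-GFP 1.

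Among the largest changes were also single genes. Slc39a12, a zinc importer of the ZIP family that is expressed in brain, had 1.95, 1.76 and 1.61 CPM in BDL and 16.7, 15.2 and 15.6 CPM in AAV-GFP (3.16 ± 0.11, adjusted p = 0.000181). It stood at 2.64, 0.998 and 0.615 CPM in AAV-VEGFC and at 1.66, 1.30 and 1.82 CPM in sham, so only the AAV-GFP libraries were high. Among the 20 tested genes of zinc and metal transport and binding 1 other rose, the plasma membrane importer Slc39a1 (0.28 ± 0.07), and 2 fell, the exporters Slc30a1 (-0.28 ± 0.05) and Slc30a10 (-0.34 ± 0.09). In this list 10% were higher and 10% lower, against 6.35% and 9.7% of all genes. Pomp, which assembles the proteasome, had 10.1, 12.8 and 11.2 CPM in BDL and 71.1, 67.5 and 50.2 CPM in AAV-GFP (2.47 ± 0.15, adjusted p = 0.000752), but ranged over 7.44 to 50.6 CPM in sham and 9.98 to 29.7 CPM in AAV-VEGFC. Tmem252, a membrane protein gene, rose from 1.64 ± 0.785 to 8.07 ± 0.777 CPM (2.30 ± 0.32, adjusted p = 0.00714) and was as high in AAV-VEGFC, at 7.38, 12.1 and 15.2 CPM. Slc39a12, Pomp and Tmem252 were called in all 6 fits without 1 library. Hnrnpc, a protein of nuclear pre-messenger RNA with processed copies in the genome, had 2.58, 3.27 and 3.5 CPM against 12.3, 10.1 and 4.25 CPM (1.51 ± 0.38, adjusted p = 0.0403), and kept its call only without AAV-GFP 1 and AAV-GFP 3. It ranged from 2.69 to 16.9 CPM in sham. Among the other largest falls, Rtbdn, which codes for a riboflavin-binding protein, went from 3.64 ± 0.859 to 0.301 ± 0.168 CPM (-3.57 ± 0.41, adjusted p = 0.00389). Mss51, a gene of mitochondrial metabolism, fell from 2.48 ± 0.379 to 0.320 ± 0.194 CPM (-2.93 ± 0.44, adjusted p = 0.00881), and Fam227a fell from 11.1 ± 1.81 to 1.77 ± 0.474 CPM (-2.64 ± 0.23, adjusted p = 0.00159). Each was called in all 6 such fits.

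For 9 of the 49 lists edgeR called no member in either direction: lymphocytes, meninges, reactive astrocytes, striatal neurons, hypothalamus and pituitary, cerebellum, blood cells, potassium channels and p53 targets. Of their 150 tested entries 10 were higher and 10 lower at an unadjusted p under 0.05, DESeq2 called 7 higher and 6 lower, and limma voom 8 higher and 12 lower. The hypothalamus and pituitary list summed to 12.4 to 14.8 CPM in BDL, to 107 CPM in AAV-GFP 1 and to 7.72 and 8.07 CPM in AAV-GFP 2 and 3; of its 22 genes 8 were tested, and Oxt and Avp were not. Summed markers of striatum ranged from 618 to 1035 CPM in BDL and from 475 to 1675 CPM in AAV-GFP, with AAV-GFP 1 the highest. The part of the cut of tissue in AAV-GFP 1 in any result above was not tested beyond the fits without that library. Few calls were also made in GABA receptors (1 lower of 17, 5.88%) and glutamatergic neurons (1 lower of 18, 5.56%). GABAergic neurons had 1 higher and 1 lower of 22 (4.55% each). Midbrain monoamine neurons had 1 higher of 8 (12.5%), histones 2 of 14 (14.3%) and cholesterol synthesis 2 of 24 (8.33%). The shares over all genes were 9.7% lower and 6.35% higher. Among the histones 6 were higher at an unadjusted p under 0.05, and DESeq2 called 6 higher. The same BDL libraries set against AAV-VEGFC gave 330 calls of 12598 genes (2.62%), 29 higher and 301 lower. AAV-VEGFC 1 stood apart in its group. Its ribosomal protein genes summed to 30008 CPM, against 13130 and 13953 CPM in AAV-VEGFC 2 and 3. Its oxidative phosphorylation genes summed to 18215 CPM, against 12498 and 12693 CPM. The part of this library in the number of calls was not tested.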

How the data were processed

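The authors deposited a table of read counts per gene (17337 rows) for 12 brain libraries; per the submitters' processing notes, Trimmomatic 0.36, HISAT2, featureCounts and the rn6 build were used. For annotation and strand setting, the sources used here name none, so overlapping and antisense genes cannot be told apart. No column of the table was left without a sample (0). Groups came from sample titles. The 6 libraries were fitted with edgeR 4.0.16 (filterByExpr, TMM factors, quasi-likelihood test, Benjamini-Hochberg adjustment) in R 4.3.3. Totals of 45241784 to 51669067 counts set the counting precision. Tested on simulated data with 12517 genes of this comparison, the fit recovered 64.6% of 1.5-fold, 87.5% of 2-fold and 100% of 4-fold changes and called 7 unchanged genes. The simulated spread depended only on a gene's level and was the same in both groups. Only genes above a minimum level were changed, and no simulated library stood apart as AAV-GFP 1 does. These shares may therefore not hold for the real libraries. Members and gene lists were chosen with earlier results of these data known. The genes named are the 12 largest rises and falls among called genes whose groups were disjoint and whose mean reached 1 CPM, the 3 genes with the smallest p of each list, and 14 fixed names; others are marked as named after their values were seen, as were Th, Flt1, Slc30a10, Gria2, Ddx5 and Mir1188. Not every gene the rule gives is described. Alternatives were DESeq2 1.42.0, limma 3.58.1 (voom), other scalings and filters, all 12 libraries, a replicate block, thinned counts, a looser threshold and leaving out each library. Rows with date names (26) or repeated names (4) were kept as deposited. Reads of the GFP transgene were not analysed here. The planned description of fold change by transcript length was not made, since the gene table is of another build.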

Additional observations from a re-analysis of the deposited data

How the results depend on the processing

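All 2023 called genes kept their direction wherever they were tested under the 11 alternatives and the 6 fits without 1 library. Their groups did not overlap, so leaving out a library could hardly reverse a direction, and the kept direction is no added support. The number of genes called, 2023 (genes called higher 800, genes called lower 1223), ranged from 585 to 3704 when each library was left out, with 94 to 1750 higher and 476 to 1954 lower. Scaling by total counts gave 402 higher, DESeq2 1222 higher, and limma voom 4039 calls (1859 higher, 2180 lower). All 12 libraries in the fit gave 795 (127 higher, 668 lower), and an adjusted p under 0.1 gave 3239 (1454 higher). The replicate block gave 749 calls (140 higher, 609 lower). Same-numbered libraries had correlations of 0.0257, 0.0612 and 0.0269 between their deviations from the group means. Those with different numbers had -0.0342 to 0.00358. Each library thus correlated best with its own number, by small amounts, and whether same-numbered libraries share a day or batch was not tested. The cause of these changes was not tested. With 3 libraries a group, the simulated 1.5-fold changes were missed in part, so a gene that was not called may still differ.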
